A study of Mus musculus with 32 samples.

Results

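The interferon-induced genes are 42 mouse genes whose transcription is known to be switched on by interferons, the cytokines that cells release when they sense viral or bacterial nucleic acids. They were named as a list, and a gene was taken as measured where the array had a probe set (a group of short probes for a transcript) whose platform or current gene symbol was that gene alone. This held for 40 of the 42 genes, out of 18193 genes measured in the same way. Ifi44 had no probe set carrying its symbol, and the only probe set for Isg15, the ubiquitin-like protein for which the family is named, also carried the symbol Gm9706, so neither was analysed here.

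Interferons bind receptors at the cell surface, and the receptors pass the signal through JAK kinases to STAT proteins. Type I and type III interferons act through a complex that contains STAT2 and IRF9 and reads the interferon-stimulated response element (ISRE), while interferon gamma acts mainly through the gamma-activated site (GAS). The products of the induced genes block viral replication, load peptides for antigen presentation, sense nucleic acids, or feed back on the pathway, and in the gut low-level interferon signalling driven by the resident microbes keeps a basal level of many of them. MyD88 is the adaptor through which most Toll-like receptors and the interleukin-1 receptor family signal, and it feeds IRF7 downstream of the endosomal receptors, whereas TLR3 uses the adaptor TRIF (Ticam1) and the cytosolic RNA sensors use MAVS.

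The series compared distal colon from wild-type (WT) mice of the strain C57 BL6NCr with distal colon from Myd88-/- (KO) mice backcrossed to that background, in which Myd88 is disrupted in every cell. Treated mice of either genotype were 6 to 8 weeks old when they received azoxymethane (AOM, a colon carcinogen, 10 mg/kg, intraperitoneally), drank 2% dextran sodium sulfate (DSS, which damages the colon epithelium) for 3 days starting 1 week later, and were then killed. The untreated WT and untreated KO mice carry no stated age or handling. Each biological repeat had an array of its own, 10 for each genotype after treatment and 6 for each genotype without it, so 32 arrays in all. Whether the mice shared cages or litters is not given in the sources used here.

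Levels are log2 signals after the arrays were brought to a common distribution (quantile normalization), so a step of 1 is a factor of 2, and the lowest value the deposited data can take is 3.32, called the floor here. Differences and their standard errors (SE) come from a linear model of the 4 groups fitted with limma to all 18193 genes. A gene is said to have risen or fallen only where its p-value, adjusted over all genes by the Benjamini-Hochberg method, was under 0.05. Replicate arrays of a group correlated at 0.935 to 0.985. The means of 12 colon epithelium markers were 11.2 to 11.9 on every array, although single markers among them moved with the groups, as given with the cell type markers. The Myd88 probe set gave 8.40 ± 0.11 (SD, n = 6) in untreated WT, 8.46 ± 0.12 (n = 10) in treated WT, 7.67 ± 0.11 (n = 6) in untreated KO and 8.00 ± 0.31 (n = 10) in treated KO samples, so it was lower in KO mice, without overlap before treatment (7.53 to 7.81 against 8.23 to 8.51) and with overlap after it. Whether its probes lie in the disrupted part of the gene is not given in the sources used here, so it is a limited check of the genotype. Treated WT repeats 1 and 2 carried high squamous epithelium signal (means of 11 keratin and cornified envelope genes of 11.3 and 10.1, against 4.15 to 8.44 on the other arrays). As the samples are bulk tissue, more cells that express a gene and more RNA of it per cell cannot be told apart.

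3 arrays stood apart in these genes, and results that rest on them are given with and without them. In treated WT repeat 9, 39 of the 40 members were at the highest level of their group, and the mean over the 40 members was 8.86, against 7.22 to 8.12 on the other 9 treated WT arrays, of which repeat 2 had the 8.12. In treated KO repeat 3, 28 of the 40 members were the highest of their group, and the mean was 8.47, against 7.22 to 7.91 on the other treated KO arrays. Untreated arrays ranged from 7.13 to 7.53 in WT and from 6.86 to 7.28 in KO samples. The highest treated arrays therefore lay well above the untreated ones in either genotype, while the lowest treated array of each genotype, at 7.22, lay within the untreated WT range. In WT samples only treated repeats 9, 2 and 5 (8.86, 8.12 and 7.81) lay clearly above the highest untreated array, and the others were at 7.22 to 7.54. Treated KO repeats 1, 6 and 8 (7.26, 7.22 and 7.22) were below the highest untreated KO array, and the other treated KO arrays were above it.

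**Figure D1:**
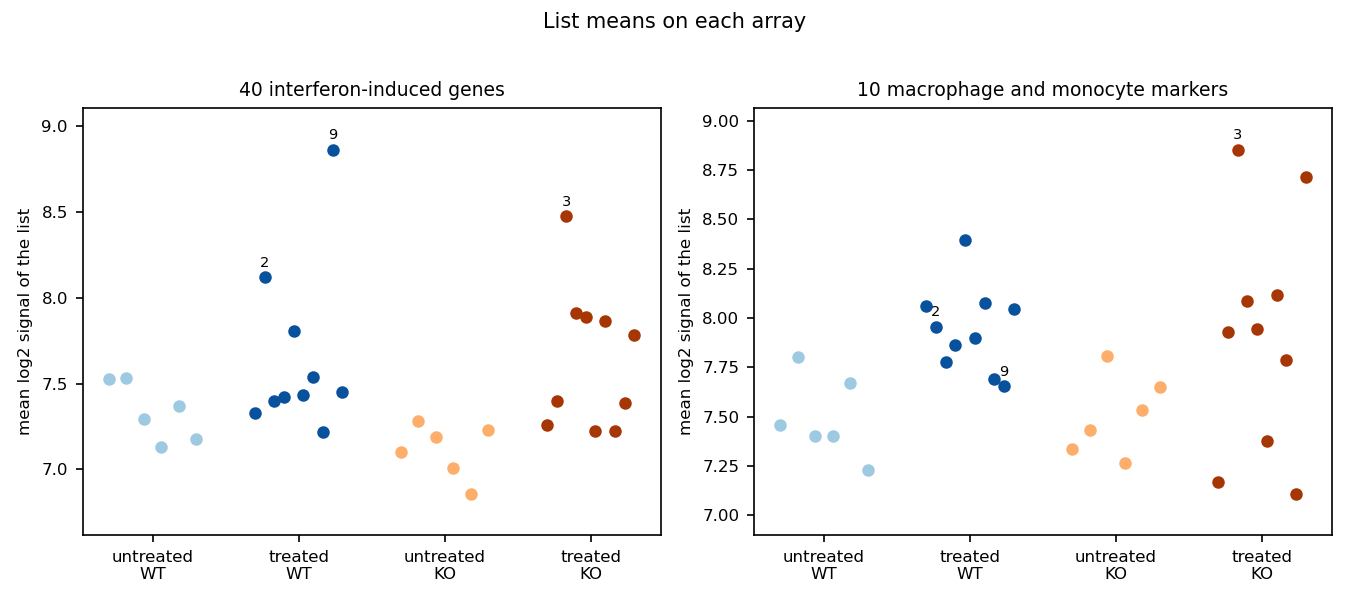
Mean log2 signal on each of the 32 arrays (points; the number is the repeat) of the 40 interferon-induced genes (left) and of 10 macrophage and monocyte markers (right), by group. Treated WT repeat 9 is the highest array for the interferon-induced genes (8.86) and the lowest treated WT array for the macrophage markers (7.65), whereas treated KO repeat 3 is the highest of its group for either list (8.47 and 8.85).

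The 2 elements named above were looked up in the promoters of the members to show the sequences through which the genes are known to be read. RefSeq promoter sequences (mouse build GRCm38.p6, 250 bases before to 50 bases after a transcript start) were at hand for 31 of the 42 genes, and not for Oas2, Usp18, Dhx58, Zbp1, Mx1, Mx2, Gbp6, Iigp1, Parp9, Parp14 and Rtp4. The ISRE core was searched as GAAA, any 2 bases and GAAA, and the GAS core as TTC, any 3 bases and GAA, each on both strands, with overlapping matches allowed. The stretches below belong to Ifit1, the member with the largest rise, to Stat2 and Irf1, transcription factors of the pathway that rose, and to Igtp and Psmb8, which were lower in treated KO than in treated WT samples. Each is printed 5′ to 3′ on the strand of its gene, with the matches in capitals.
Ifit1, chr19:34640760-34640838, plus strand, 129 to 51 bases before the start: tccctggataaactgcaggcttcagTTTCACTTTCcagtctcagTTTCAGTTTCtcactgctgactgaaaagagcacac
Stat2, chr10:128270251-128270310, plus strand, 247 to 188 bases before the start: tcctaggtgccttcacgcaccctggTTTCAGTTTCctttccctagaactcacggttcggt
Irf1, chr11:53769899-53769957, plus strand, 115 to 57 bases before the start: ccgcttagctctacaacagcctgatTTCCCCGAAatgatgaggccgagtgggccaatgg
Igtp, chr11:58199486-58199555, plus strand, 70 to 1 bases before the start: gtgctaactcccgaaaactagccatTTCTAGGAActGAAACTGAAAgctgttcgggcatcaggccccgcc
Psmb8, chr17:34198073-34198131, plus strand, 122 to 64 bases before the start: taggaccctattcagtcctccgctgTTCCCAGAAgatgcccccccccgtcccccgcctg

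Ifit1 held 2 ISRE matches, read on the opposite strand, starting 104 and 85 bases before the start, and Stat2 held 1, at 222 bases. Irf1 and Psmb8 held a GAS match only, at 90 and 97 bases, and Igtp held a GAS match at 45 bases and an ISRE match at 34 bases. Over the 31 genes, 16 (51.6%) had an ISRE match in any of their promoters, against 3.99% of the 27025 genes in the promoter table, and 10 (32.3%) had a GAS match, against 9.55%. Both were present in 4 members (Bst2, Eif2ak2, Igtp and Oas1a), only an ISRE in 12, only a GAS in 6, and neither in 9, among them Irf7, Irf9, Oasl2 and Tap1. The promoters of Psmb9 and Tap1 lie on opposite strands of chromosome 17 and overlap (34187281 to 34187580 and 34187306 to 34187605), so these antigen-processing genes share most of a window, which held neither motif. A match of letters is not a binding site, and the absence of one says only that these letters are not in the window.

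The first question was how the colon of each genotype responded to AOM and DSS. In KO mice, 14 of the 40 members rose and none fell, against 18.7% of all 18193 genes called in either direction and 8.69% called higher. The risen genes took in all 4 transcription factors, 1 of 3 IFIT genes, 1 of 5 oligoadenylate synthetases, Usp18, 2 of 6 nucleic acid sensors, 2 of 8 GTPases and 3 of 10 other effectors, and none of the 3 antigen-processing genes. The median difference over the 40 members was 0.47, with 35 of them higher, beside a median of 0 over all genes. In WT mice none of the 40 was called, against 1.82% of all genes, although 37 of the 40 were higher after treatment, with a median difference of 0.29. At an unadjusted p under 0.05, 21 members passed in KO and 5 in WT, beside 31.2% and 14.9% of all genes.

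**Figure D2:**
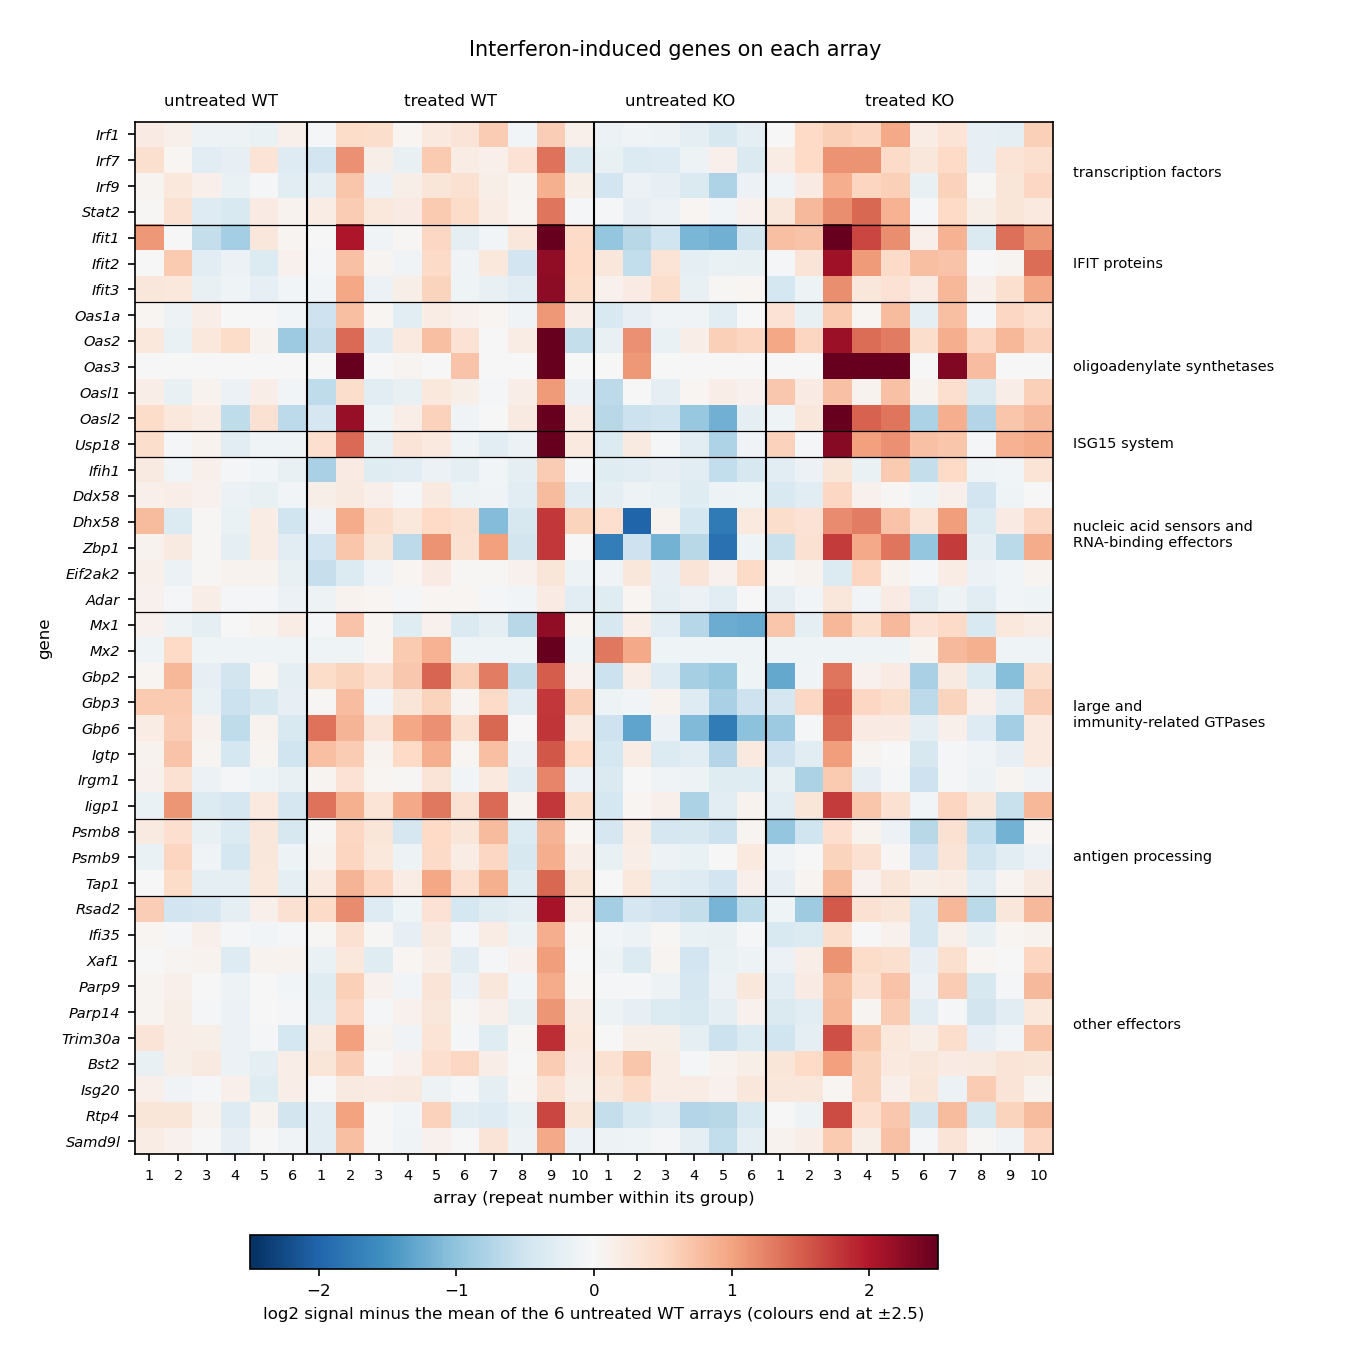
Log2 signal of each of the 40 members (rows, grouped by role) on each of the 32 arrays (columns, by group and repeat number), as the difference from the mean of the 6 untreated WT arrays, with colours ending at ±2.5. Treated WT repeat 9 and treated KO repeat 3 are the reddest columns, and most treated WT arrays other than repeats 2 and 9 are pale outside the GTPase rows.

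The WT median was smaller without the arrays that stood apart. They were singled out for high levels of these same genes, so a fall of the medians follows from the choice. More of them were treated WT than treated KO arrays, so the falls in the genotypes cannot be compared. Without treated WT repeat 9 the WT median over the members was 0.17, and without treated WT repeats 2 and 9 and treated KO repeat 3 it was 0.066, with 29 of 40 members higher and none called. The KO median was 0.41 without these 3 arrays, and 17 members were called, the same 14 and Ifit2, Oas1a and Rsad2. Under that fit 16.9% of all genes were called in either direction in KO mice. Left out alone, treated KO repeat 3, untreated KO repeat 2 and untreated KO repeat 5 brought the KO count to 9, 8 and 7, and treated WT repeat 9, through the shared estimate of spread, brought it to 17. With only the KO arrays in the fit, 8 members were called. Without treated WT repeat 9, 18.5% of all genes were called in either direction in KO mice. The shares under the other fits are not given here, so those counts do not show a change particular to the members.

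The transcription factors rose together in KO mice. Irf9, the DNA-binding part of the STAT complex, lay at 6.82, 7.30 and 7.44 (lowest, median and highest) in untreated KO and at 7.41, 8.00 and 8.49 in treated KO samples, a rise of 0.70 ± 0.16 (SE; 1.62-fold, adjusted p = 0.00218). All 10 treated KO samples were above the untreated KO mean, and the groups overlapped only between 7.41 and 7.44. In WT samples Irf9 spanned 7.32 to 7.85 untreated and 7.35 to 8.48 treated, the highest being repeat 9, with a difference of 0.24 ± 0.16 (adjusted p = 0.509).

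Irf1, an activator that acts early after interferon gamma, rose by 0.54 ± 0.14 in KO mice (adjusted p = 0.00707), from 9.02, 9.22 and 9.33 to 9.20, 9.84 and 10.4 (lowest, median, highest), with 9 of 10 treated samples above the untreated mean. Irf7, the factor that amplifies the type I response, rose by 0.68 ± 0.22 (adjusted p = 0.0324), from 7.49, 7.59 and 7.97 to 7.65, 8.28 and 8.97. Stat2 rose by 0.62 ± 0.19 (adjusted p = 0.0227), from 5.95, 6.10 and 6.26 to 6.13, 6.56 and 7.60. All treated KO samples lay above the untreated KO mean for Irf7 and Stat2, with the ranges overlapping for all 4 factors. The call for Irf7 ended without treated KO repeat 3 or 4 or untreated KO repeat 1, 2, 3 or 6 (adjusted p up to 0.0665), and that for Stat2 without untreated KO repeat 2 (0.0520). In WT mice the differences of the 4 factors were 0.24 to 0.40, and none was called.

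Among the IFIT genes, whose products bind foreign RNA and block its translation, Ifit1 had the largest rise of all members in KO mice. It lay at 5.16, 5.52 and 5.90 in untreated KO samples and at 5.99, 7.34 and 9.31 in treated KO samples, a rise of 1.86 ± 0.44 (3.64-fold, adjusted p = 0.00330). This was the only member whose 2 KO groups did not overlap, the lowest treated sample being repeat 8 and the highest repeat 3. How many of all genes were separated in this way was not counted, so the separation is not shown to be unusual. In WT mice Ifit1 lay at 5.52, 6.39 and 7.45 untreated and at 6.14, 6.51 and 9.51 treated, so the medians were close, and repeats 9 and 2 (9.51 and 8.39) stood above the other 8 treated samples, the highest of which was at 6.87. The WT difference was 0.61 ± 0.44 (adjusted p = 0.569). Ifit2 was 0.78 ± 0.31 higher in treated KO samples, all 10 of them above the untreated mean, and missed the threshold (adjusted p = 0.0765); Ifit3 differed by 0.27 ± 0.27.

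The oligoadenylate synthetases, which make the messenger that turns on RNase L, and their relatives the OAS-like genes, were all higher after treatment in each genotype, by 0.43 to 1.35 in KO and 0.07 to 0.57 in WT mice with Oas3 set aside. Only Oasl2 was called, in KO mice: it went from 6.31, 6.89 and 7.25 to 6.71, 8.26 and 10.2, a rise of 1.35 ± 0.46 (2.55-fold, adjusted p = 0.0373). Treated KO samples spread over more than 3 log2 steps and overlapped the untreated ones, and the call ended without any single array among treated KO repeats 3, 4, 5, 7 and 10 and untreated KO repeats 1 to 5 (adjusted p up to 0.0845). Oas1a lay at 9.84 in the median untreated KO and 10.4 in the median treated KO sample, with a difference of 0.49 ± 0.18 (adjusted p = 0.0549). Oas3 was at the floor on all 6 untreated WT arrays, on 5 of 6 untreated KO arrays, on 6 of 10 treated WT arrays and on 5 of 10 treated KO arrays, so no fold is given for it. The treated arrays above the floor reached 7.31 in WT (repeat 9) and 6.90 in KO samples (repeat 4).

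Usp18, the protease that strips ISG15 from proteins and blocks the type I interferon receptor, rose by 1.03 ± 0.34 in KO mice (2.04-fold, adjusted p = 0.0319). It lay at 4.90, 5.49 and 5.90 untreated and at 5.62, 6.47 and 7.94 treated, all treated samples being above the untreated mean. Its call ended without treated KO repeat 3 or 5 or untreated KO repeat 1, 4 or 5 (adjusted p up to 0.0829).

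Of the nucleic acid sensors and RNA-binding effectors, Zbp1 and Dhx58 rose in KO mice. Zbp1, a sensor of Z-form nucleic acids that can start necroptosis, went from 5.50, 6.42 and 7.25 to 6.40, 8.01 and 9.12, a rise of 1.48 ± 0.40 (2.80-fold, adjusted p = 0.00956). Its treated KO samples fell in a wide range, with repeats 3 and 7 above 9 and repeats 1, 6 and 9 below 7. Dhx58, the regulatory member of the RIG-I family, went from 3.32 (the floor, in 1 sample), 5.16 and 5.75 to 4.98, 5.81 and 6.61, a rise of 1.15 ± 0.36 (adjusted p = 0.0236), which was lost without untreated KO repeat 2 or 5 (adjusted p up to 0.0996). A second Dhx58 probe set, dimmer, differed by -0.17. Ifih1, the sensor MDA5, was 0.39 ± 0.16 higher in treated KO and 0.13 ± 0.16 lower in treated WT samples, neither called. The RNA sensor gene Ddx58 (RIG-I), Adar, which edits double-stranded RNA, and Eif2ak2, the kinase PKR, differed by less than 0.13 in either direction in both genotypes.

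Of the 8 GTPases, Mx1 and Gbp6 rose in KO mice, and all 8 were higher in treated than in untreated WT mice without a call. Mx1, a dynamin-like antiviral GTPase of which C57BL/6 mice are known to carry a defective allele, rose by 0.96 ± 0.29 in KO mice (adjusted p = 0.0194), from 4.40, 5.10 and 5.83 to 5.28, 6.06 and 6.48, and differed by 0.15 ± 0.29 in WT mice. Gbp6, a guanylate-binding protein of the kind that interferon gamma induces and that attacks vacuoles of intracellular microbes, rose by 0.96 ± 0.30 in KO mice (adjusted p = 0.0220), from 4.16, 4.84 and 5.75 to 5.00, 5.94 and 7.30. In WT mice it went from 5.27, 6.00 and 6.53 to 5.91, 6.81 and 7.68, a difference of 0.85 ± 0.30, with all 10 treated samples above the untreated mean, but it was not called (adjusted p = 0.147). Its interaction, the KO response minus the WT response, was 0.11 ± 0.42 (adjusted p = 0.966). The call for Mx1 ended without untreated KO repeat 5 or 6 (0.0612), and that for Gbp6 without untreated KO repeat 2 or 5 (0.0743).

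Iigp1, an immunity-related GTPase, had the largest WT difference of all members, 0.89 ± 0.29 (adjusted p = 0.110), from 7.16, 7.34 and 8.68 to 7.67, 8.50 and 9.35. All 10 treated WT samples lay above the untreated mean, the untreated sample at 8.68 being repeat 2. Left out, that sample took Iigp1 past the threshold, with a difference of 1.11. Gbp2 was 0.65 ± 0.32 higher in treated WT samples and Igtp, another immunity-related GTPase, 0.56 ± 0.23 higher, against 0.30 ± 0.32 and 0.21 ± 0.23 in KO samples, with none of these called. Mx2 was at the floor on 22 of 32 arrays, and no fold is given for it.

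The 3 antigen-processing genes did not rise in KO mice. Psmb8 and Psmb9, catalytic subunits of the immunoproteasome, differed by -0.06 ± 0.23 and -0.01 ± 0.17 in KO mice, and by 0.26 ± 0.23 and 0.26 ± 0.17 in WT mice. Tap1, part of the peptide transporter, differed by 0.26 ± 0.19 in KO and 0.56 ± 0.19 in WT mice (adjusted p = 0.377 and 0.135), with 9 of 10 treated WT samples above the untreated mean.

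Among the other effectors, Rtp4, Samd9l and Xaf1 rose in KO mice. Rtp4, known as a chaperone of receptors and a restraint on antiviral signalling, went from 7.86, 8.09 and 8.32 to 8.12, 9.07 and 10.2, a rise of 0.90 ± 0.28 (1.86-fold, adjusted p = 0.0218), with all treated samples above the untreated mean. Samd9l, an inhibitor of translation, rose by 0.47 ± 0.15 (adjusted p = 0.0307), from 9.07, 9.50 and 9.65 to 9.58, 9.83 and 10.4, a call lost without treated KO repeat 3, 5 or 10 or untreated KO repeat 5 or 6 (adjusted p up to 0.0961). Xaf1, which antagonises an inhibitor of apoptosis, rose by 0.47 ± 0.17 (adjusted p = 0.0475), but its second, dimmer probe set differed by -0.28, and with the mean of both the difference was 0.097 (adjusted p = 0.675). The Xaf1 call survived only the removal of treated WT repeat 1, 3, 6 or 9, treated KO repeat 1, 6, 8 or 9, untreated WT repeat 4 or untreated KO repeat 3. Rsad2 (viperin) was 0.90 ± 0.33 higher in treated KO samples (adjusted p = 0.0583), and Ifi35 0.04 ± 0.13 higher. Parp9, Parp14, Trim30a, Bst2 and Isg20 differed by 0.35, 0.21, 0.42, 0.16 and -0.002 in KO mice, none of them called.

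**Figure D3:**
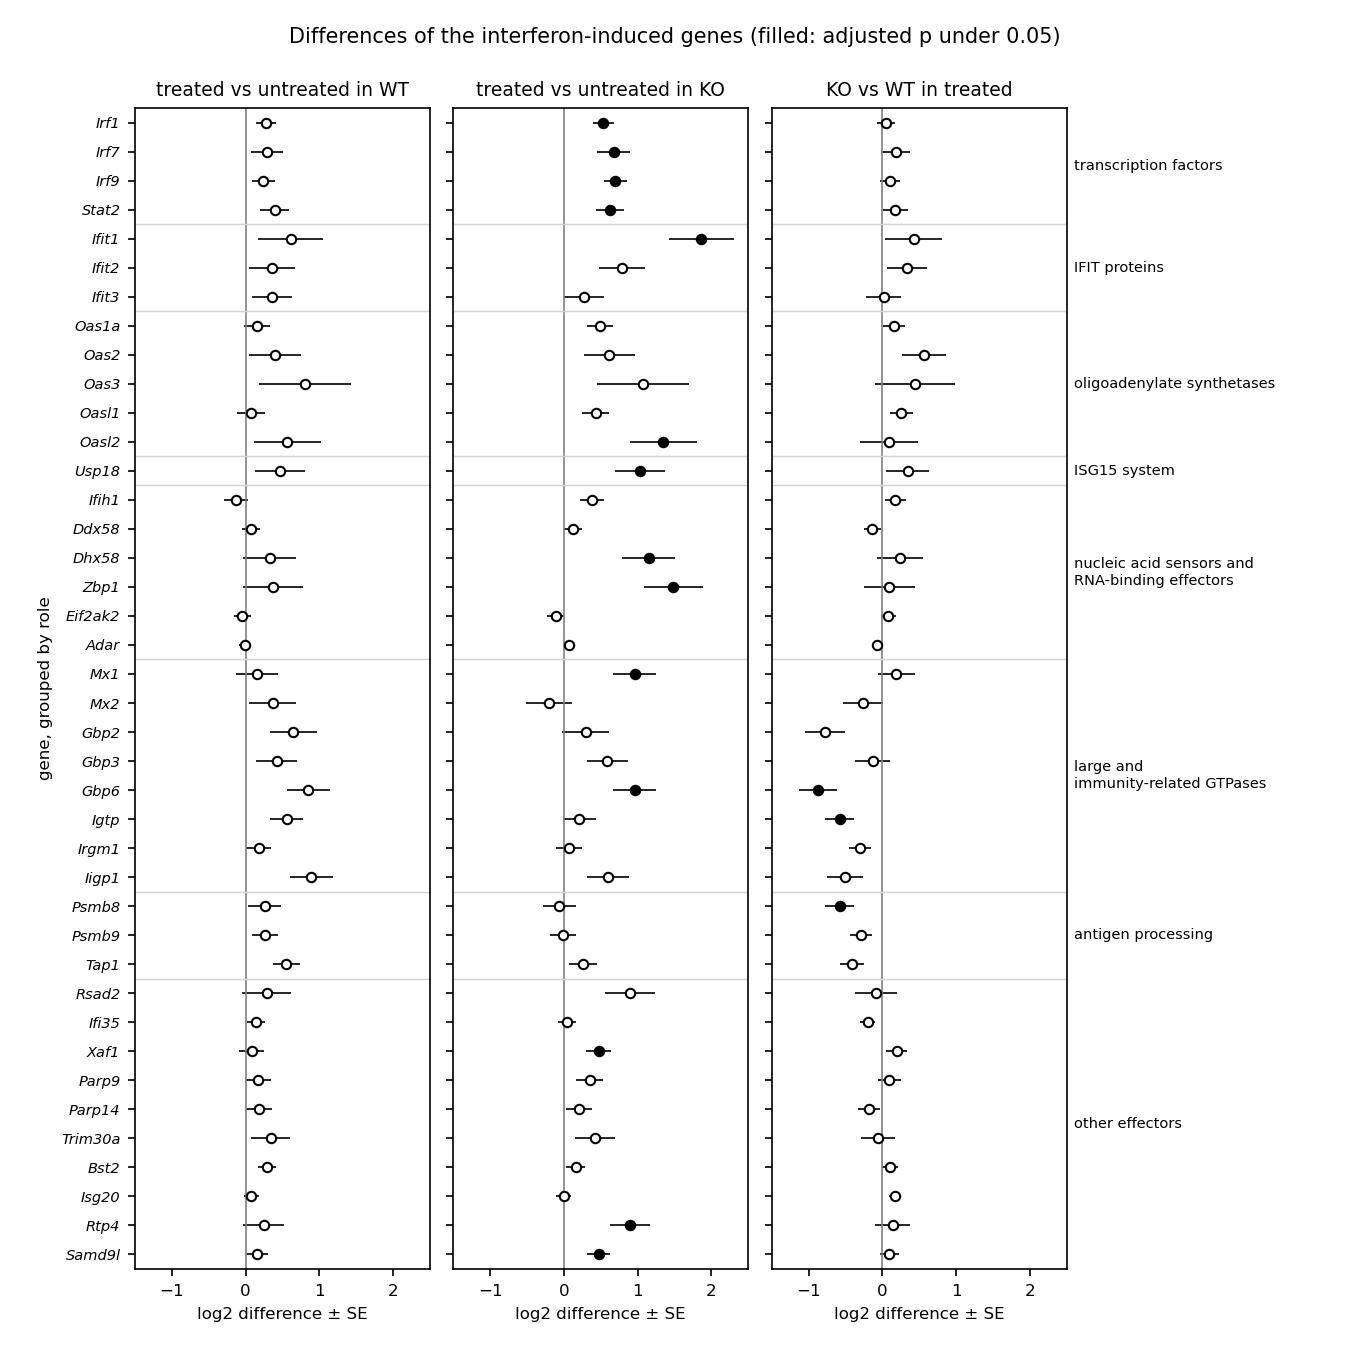
Log2 difference ± SE of each of the 40 members, grouped by role, for treated against untreated in WT (left), treated against untreated in KO (middle) and KO against WT after treatment (right). Filled points passed an adjusted p under 0.05: none on the left, 14 in the middle, all to the right of 0, and 3 on the right panel (Gbp6, Igtp and Psmb8), all to the left of 0.

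The promoter matches were also counted by the outcome in KO mice. Of the 14 members that rose in KO mice, 8 were in the promoter table, and 2 of these, Ifit1 and Stat2, held an ISRE match and 1, Irf1, a GAS match. Of the 21 measured members in the table that were not called, 13 held an ISRE match and 9 a GAS match. These are counts of letters in short windows, given with no test.

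Before treatment no member was called between the genotypes, against 0.115% of all genes, and 3 of the 40 passed at an unadjusted p under 0.05, beside 7.16% of all genes. Of the 40 members, 33 were lower in untreated KO than in untreated WT samples, with a median difference of -0.20 beside 0 over all genes. As the members vary together from array to array, counts of direction such as this one are not separate observations in any of the comparisons. The largest differences were those of Zbp1, Gbp6 and Ifit1. Zbp1 lay at 7.07 to 7.58 in WT and at 5.50 to 7.25 in KO samples, a difference of -1.02 ± 0.45 (adjusted p = 0.651), with all 6 KO samples below the WT mean. Gbp6 differed by -0.98 ± 0.33 (adjusted p = 0.461) and Ifit1 by -0.83 ± 0.49 (adjusted p = 0.786). Ifih1 was the only member of which the untreated groups did not overlap, with WT samples at 9.67 to 10.1 and KO samples at 9.25 to 9.65. Its difference was -0.34 ± 0.18 and was not called (adjusted p = 0.736). The share of all genes without overlap between the untreated groups was not counted, so no genotype difference is read from it. Among the 7 members higher in untreated KO samples, Oas2 differed by 0.35 and Isg20 by 0.25, and Mx2 was at the floor on 9 of the 12 untreated arrays.

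The responses of the 2 genotypes were then set against each other directly, through the interaction (the KO response minus the WT response). No member was called, against 0.055% of all genes, and 2 members and 11.7% of all genes passed at an unadjusted p under 0.05. The interaction was 1.25 ± 0.62 for Ifit1 (adjusted p = 0.436), 1.11 ± 0.57 for Zbp1 (0.453) and 0.82 ± 0.51 for Dhx58 (0.555), the 3 largest, and it was lowest for Mx2, Igtp and Gbp2. So a rise called in KO and not in WT mice is not shown to differ between the genotypes for any member. By role, all 4 transcription factors and all 5 oligoadenylate synthetases had interactions above 0, and all 3 antigen-processing genes below 0, none of them called.

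After treatment, 3 of the 40 members were called between KO and WT samples. Gbp6, Igtp and Psmb8 were lower in KO samples and none was higher, against 12.8% of all genes called in either direction and 6.57% called lower. So the members were called lower about as often as all genes, and in either direction less often. At an unadjusted p under 0.05, 6 members and 26.0% of all genes passed, again a smaller share of the members. By role, 7 of 8 GTPases and 3 of 3 antigen-processing genes were lower in treated KO samples, whereas all 4 transcription factors, all 3 IFIT genes and all 5 oligoadenylate synthetases were higher, without a call in the latter groups. The median over the 40 members was 0.094.

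Gbp6 lay at 5.91, 6.81 and 7.68 in treated WT and at 5.00, 5.94 and 7.30 in treated KO samples, a difference of -0.87 ± 0.26 (1.83-fold lower, adjusted p = 0.0235). 9 of 10 KO samples were below the WT mean, the exception being repeat 3. The difference was of like size before treatment (-0.98), and a second Gbp6 probe set gave -0.37 after treatment. Genes of the guanylate-binding family have closely similar copies, which probes may not tell apart. The call held when any single array was left out (adjusted p up to 0.0454), and ended without treated WT repeats 2 and 9 together (-0.75, adjusted p = 0.0722) or repeats 1 and 2 together (0.0661), while without repeats 2 and 9 and treated KO repeat 3 it was kept (-0.91, adjusted p = 0.0151).

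Igtp lay at 7.41, 8.13 and 9.13 in treated WT and at 7.05, 7.51 and 8.61 in treated KO samples, a difference of -0.58 ± 0.20 (1.49-fold lower, adjusted p = 0.04995). Apart from repeat 3, the highest treated KO sample was at 7.80, a level that 7 of the 10 treated WT samples exceeded. Psmb8 lay at 7.75, 8.47 and 9.01 in treated WT and at 6.97, 7.84 and 8.58 in treated KO samples, a difference of -0.58 ± 0.20 (1.49-fold lower, adjusted p = 0.0490). For Psmb8, 8 of 10 KO samples were below the WT mean and the ranges overlapped widely. Both calls sat at the threshold. That for Igtp was kept only without treated WT repeat 3, 6 or 8, treated KO repeat 3, untreated WT repeat 2 or 6 or untreated KO repeat 5 or 6 (adjusted p up to 0.0957 otherwise), and that for Psmb8 only without treated WT repeat 4 or 8, treated KO repeat 3, 4, 7 or 10 or untreated KO repeat 2 (up to 0.0879 otherwise).

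**Figure D4:**
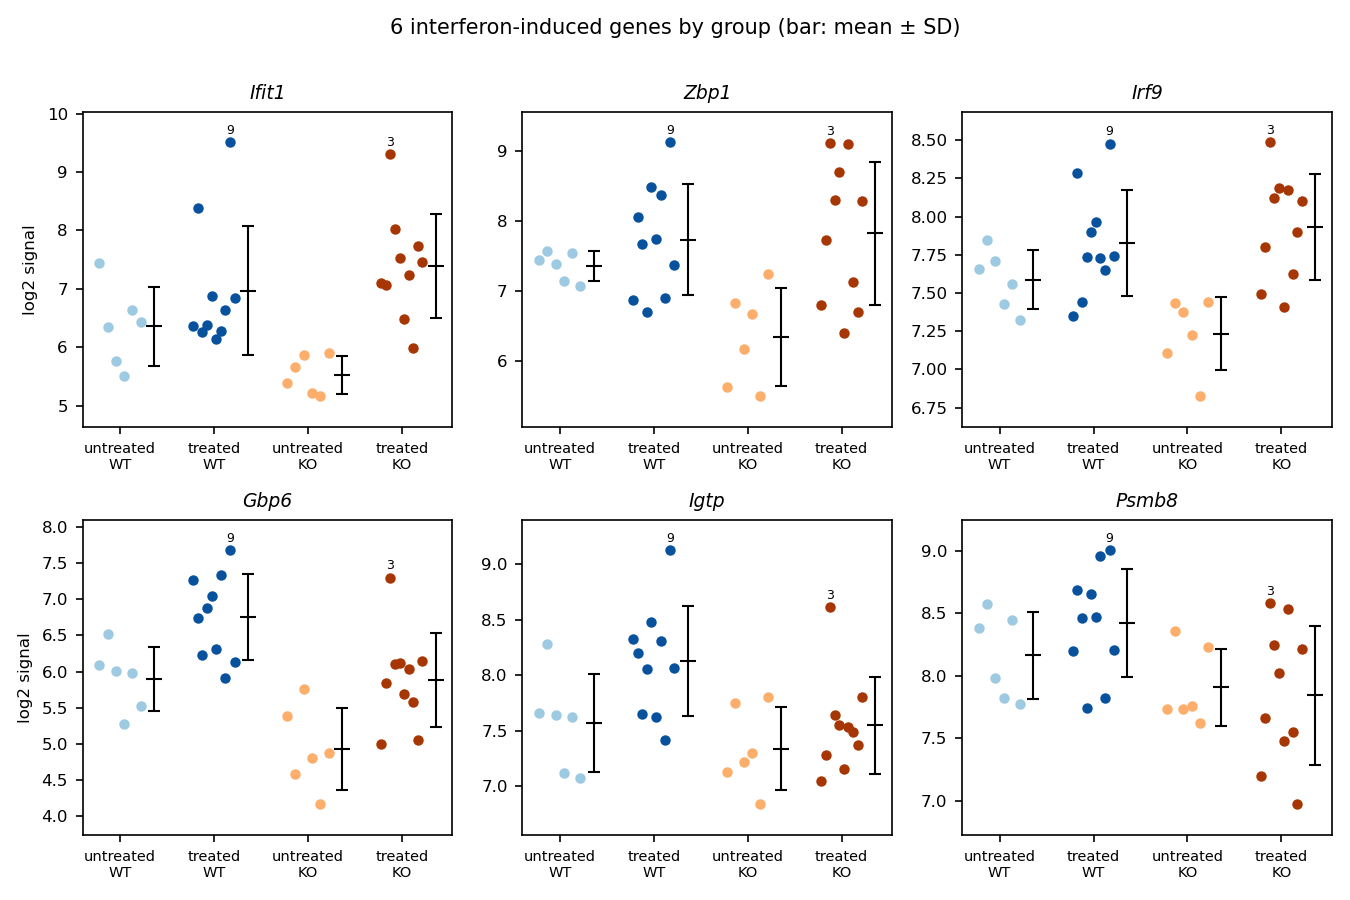
Log2 signal of 6 members on each array (points) by group, with the mean ± SD of each group as bars and treated WT repeat 9 and treated KO repeat 3 numbered. Ifit1, Zbp1 and Irf9 have their lowest means in untreated KO samples, and treated KO means 0.42, 0.095 and 0.10 above the treated WT ones, while Gbp6, Igtp and Psmb8 have lower means in treated KO than in treated WT samples (5.89 against 6.76, 7.55 against 8.13 and 7.85 against 8.42).

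Close to these stood Gbp2, at 8.19, 9.36 and 10.3 in treated WT and 7.52, 8.80 and 10.1 in treated KO samples, a difference of -0.78 ± 0.28 (adjusted p = 0.0625), with 9 of 10 KO samples below the WT mean. Tap1, Iigp1 and Irgm1 had differences of -0.41, -0.51 and -0.31, each with 9 of 10 KO samples below the WT mean and none called. The highest difference was that of Oas2, 0.56 ± 0.30 (adjusted p = 0.238), with all 10 KO samples above the WT mean, and that of Ifit1 was 0.42 ± 0.38 (0.540). Left out alone, treated WT repeat 9 added a call for Oas2, higher in KO samples, and left Gbp6 as the only lower call. Under that fit 12.7% of all genes were called in either direction. In all, 20 of the 32 arrays, left out singly, moved the count of 3 called members by more than 1.5 times, to 5 for treated WT repeat 8 and treated KO repeat 3 and to 1 for the others; the 12 that did not were repeats 3, 4, 6 and 9 of treated WT, repeats 4, 7 and 10 of treated KO, repeats 2 and 6 of untreated WT and repeats 2, 5 and 6 of untreated KO. Without treated WT repeats 2 and 9 and treated KO repeat 3, the called members were Gbp6, Igtp and Gbp2 (lower in KO) and Oas2 and Usp18 (higher in KO, 0.82 and 0.59). Under this fit 10.5% of all genes were called in either direction. Treated WT repeats 2 and 9 had the highest member means of their group, and leaving them out lowers the treated WT means by construction. A shift towards calls higher in KO samples follows from this choice, and no genotype difference is read from it. Without these arrays only, 4 members were called higher in KO samples and none lower, with the share of all genes not given here. These were Oas2 (0.95, adjusted p = 0.0101), Ifit1 (0.92, adjusted p = 0.0460), Oasl1 and Usp18, while Gbp6, Igtp and Psmb8 were no longer called (adjusted p of 0.0722, 0.150 and 0.151).

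The 3 calls also ended under other fits. With the means of the squamous epithelium and skeletal muscle markers as covariates, the differences of Gbp6, Igtp and Psmb8 were -0.77, -0.60 and -0.60, and none was called. Without treated WT repeats 1 and 2, which carried the squamous signal, they were -0.81, -0.54 and -0.57, again without a call, and none was called with only the treated arrays in the fit. In all of these, and without treated WT repeats 2 and 9 (-0.75, -0.44 and -0.47), the 3 genes stayed lower in KO samples.

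The members varied together from array to array within groups. After each group's mean was taken off, 37 of the 40 members had a Pearson correlation above 0.5 with the mean of the other members over the 32 arrays, and the median correlation between pairs of members was 0.615. Other genes had a median correlation of -0.016 with the member mean, and 1.73% of 18085 of them passed 0.5. Without the 3 arrays that stood apart, 30 members and 3.51% of the other genes passed 0.5, and the median over pairs of members was 0.369, so much of the shared variation lay in those arrays. The members closest to the rest were Oasl2 (0.932), Rtp4 (0.918), Parp14 (0.902), Ifi35 (0.901) and Trim30a (0.901). The 3 members under 0.5 were Isg20 (-0.01), Eif2ak2 (0.158) and Mx2 (0.465). Without the 3 arrays the 10 members under 0.5 were Oas1a (0.483), Irf7 (0.458), Eif2ak2 (0.413, so higher than with them), Mx1 (0.374), Oas2 (0.358), Dhx58 (0.345), Oasl1 (0.292), Bst2 (0.236), Mx2 (0.16) and Isg20 (-0.34). By role, the antigen-processing genes kept the highest correlation among themselves without those arrays (0.734 over 3 pairs). The 10 genes outside the lists most like the member mean were Ddx60 (0.921), Slfn4 (0.884), Gm9706, whose symbol is also on the Isg15 probe set (0.865), Uba7 (0.861), Phf11d (0.827), Gm20559 (0.825), Ly6e (0.817), Slfn2 (0.810), Dtx3l (0.801) and Trim34a (0.801). Without the 3 arrays the values of these 10 genes were lower and in another order, with Ddx60 at 0.786, Dtx3l at 0.765, Uba7 at 0.755, Ly6e at 0.699, Slfn4 at 0.691, Phf11d at 0.619, Trim34a at 0.604, Slfn2 at 0.573, Gm20559 at 0.495 and Gm9706 at 0.484. These correlations describe arrays that share groups and scaling, and have no test.

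The other genes of the pathway were taken from lists. Their counts stand beside shares over all genes of 8.69% called higher and 10% called lower in the KO response, and of 6.24% called higher and 6.57% called lower in treated KO against treated WT samples. Of 9 interferon ligand genes, 5 had a probe set, and none was called in any comparison: the group means of Ifnb1, Ifna1, Ifna2, Ifna4 and Ifng were 3.32 to 4.66, at or near the floor, so these arrays give no measure of a change in them. All 6 receptor chain genes were measured. None was called in the WT or KO response, and 2 were higher in treated KO than in treated WT samples: Ifngr2, a chain of the interferon gamma receptor, by 0.38 ± 0.11 (adjusted p = 0.0181), and Il10rb, shared by the type III interferon and interleukin-10 receptors, by 0.27 ± 0.08 (adjusted p = 0.0255). Ifnar1, Ifnar2, Ifngr1 and Ifnlr1 were 0.13, 0.30, 0.24 and 0.38 higher without a call.

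The other JAK and STAT genes described here were Jak1, Jak2, Tyk2 and Stat3. Stat3, which serves interleukin-6 family cytokines, rose by 0.62 ± 0.13 in KO mice (adjusted p = 0.00101) and was 0.33 ± 0.11 higher in treated KO than in treated WT samples (adjusted p = 0.0418), as was Jak2 by 0.32 ± 0.07 (adjusted p = 0.00487). Of 6 feedback inhibitors, 3 rose and 1 fell in KO mice. Socs3 rose by 2.31 ± 0.53 (adjusted p = 0.00248), Socs1 by 0.66 ± 0.23 (0.0455) with 4 of 6 untreated KO arrays at the floor, and the phosphatase gene Ptpn6 by 0.36 ± 0.10 (0.0151). Pias1, an inhibitor of STAT signalling, fell by 0.35 ± 0.06 (0.000212).

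Upstream of the interferons, 13 of 15 sensors and adaptors were measured, and 3 rose in KO mice: Tlr3 (0.53 ± 0.15, adjusted p = 0.0116), Ticam1, the adaptor of TLR3 (0.68 ± 0.14, 0.00127), and Sting1, the adaptor of cytosolic DNA sensing (0.50 ± 0.18, 0.0460). In treated KO against treated WT samples Ticam1 was higher by 0.54 ± 0.12 (adjusted p = 0.00418), while Mavs (-0.50 ± 0.11, 0.00305) and Irf8 (-0.25 ± 0.07, 0.0148) were lower. Of 25 further interferon-induced genes measured, 4 rose in KO mice (beside the 8.69% of all genes), namely the chemokine gene Cxcl10 (1.46 ± 0.25, adjusted p = 0.000198), Lgals3bp (0.72 ± 0.19, 0.00796), Ifi204 (0.97 ± 0.33, 0.0408, with 3 of 6 untreated KO arrays at the floor) and Ifitm1 (0.91 ± 0.32, 0.0439). In treated KO samples Ido1, which degrades tryptophan and is known as a target of interferon gamma, was lower than in treated WT samples (-1.28 ± 0.36, adjusted p = 0.0166), as was Pml (-0.48 ± 0.13, 0.0174). The Ido1 difference was of like size before treatment (-1.135 ± 0.46, adjusted p = 0.603), and that of Pml was -0.26 ± 0.17 (0.805). Of 9 further genes of class I antigen presentation, H2-D1 alone rose in KO mice (0.41 ± 0.08, adjusted p = 0.000627). None of these lists had a call in the WT response.

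Markers of some cell types that the tissue could gain or lose moved with the groups in the comparisons in which members were called. Of 12 colon epithelium markers, 6 rose in KO mice (Cdx2, Vil1, Epcam, Krt20, Krt8 and Krt19) and 2 fell (Hoxb13 and Hoxd13), with differences from -0.87 to 0.75 over the list, beside 8.69% and 10% of all genes. In treated KO against treated WT samples Cdx2, Vil1, Epcam and Krt20 were higher and Hoxd13 was lower, beside 6.24% and 6.57% of all genes. All 11 squamous epithelium genes were higher in treated than in untreated WT samples, with a median of 2.14 and 1 call (Krt14, 3.35 ± 0.90, adjusted p = 0.0473), and all 11 were lower in treated KO than in treated WT samples, with a median of -1.515 and no call. Their list mean ranged over 4.19 to 6.06 in untreated WT, 4.38 to 11.3 in treated WT, 4.15 to 8.35 in untreated KO and 4.43 to 8.09 in treated KO samples. All 7 skeletal muscle genes were higher in treated WT samples (median 1.24), and 6 of the 7 were lower in treated KO than in treated WT samples (median -0.56), with no call in either comparison.

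Some immune and vessel cell markers moved as well. None of the 7 NK cell, 6 dendritic cell and 6 smooth muscle markers measured was called in any comparison. The counts of rises in KO mice below stand beside 8.69% of all genes called higher. Of 10 macrophage and monocyte markers measured, 8 were higher and 2 lower in treated than in untreated KO samples. Cd68 alone was called (1.18 ± 0.30 higher, adjusted p = 0.00580). In treated KO against treated WT samples 3 were higher and 7 lower, none called. The macrophage list mean ranged over 7.23 to 7.80 in untreated WT, 7.65 to 8.39 in treated WT, 7.26 to 7.81 in untreated KO and 7.11 to 8.85 in treated KO samples. Of 7 neutrophil markers, Csf3r rose in KO mice, with 2 of 6 untreated KO arrays at the floor. The list mean ranged over 3.93 to 4.52, 3.97 to 5.47, 3.93 to 4.36 and 4.12 to 5.64 in the same order, with Cxcr2 at the floor on all untreated arrays. In each genotype 6 of the 7 were higher after treatment and 1 lower. The largest differences were those of S100a8 and S100a9 (1.27 and 1.20 in KO, 1.57 and 1.56 in WT mice), none called. Of 6 endothelial markers, Pecam1, Cdh5 and Tek rose in KO mice, with list means of 6.22 to 6.59, 6.50 to 6.93, 6.13 to 6.86 and 6.17 to 7.48. Of 8 T cell markers, 6 were higher and 2 lower in treated than in untreated KO samples. Cd4 alone was called (higher, adjusted p = 0.0309). As Cd4 was at the floor on all untreated arrays and on 3 of 10 treated KO arrays, no fold is given for it. Cd8b1 was also at the floor on all untreated arrays, and the list mean was 3.66 to 5.45 over all arrays. Most of the 7 B and plasma cell markers went the other way, with 6 lower and 1 higher after treatment in each genotype. The higher one was Sdc1 in KO mice (0.067) and Ms4a1 in WT mice (0.187), neither called. Jchain, Mzb1 and Cd79b fell in KO mice and Jchain, Mzb1 and Tnfrsf17 in WT mice, beside 10% and 1.22% of all genes called lower. Cd79b was at the floor on 3 of 10 treated KO arrays and Tnfrsf17 on 5 of 10 treated WT arrays. Jchain (-1.54 ± 0.23, adjusted p = 0.000135) and Mzb1 (-0.77 ± 0.21, 0.0143) were also lower in treated KO than in treated WT samples, where 5 of the markers were lower and 2 higher. The B and plasma cell list mean ranged over 6.73 to 7.96 in untreated WT, 6.18 to 7.56 in treated WT, 6.51 to 7.72 in untreated KO and 5.73 to 7.34 in treated KO samples. Treated WT repeat 9, the highest array for the interferon-induced genes, had the lowest macrophage and endothelial means of its group (7.65 and 6.50) and a squamous mean of 4.90, whereas treated KO repeat 3 had the highest macrophage, endothelial and T cell means of its group (8.85, 7.48 and 4.66) and a squamous mean of 8.09. The part of these markers in the changes of the interferon-induced genes was not tested.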

How the data were processed

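Labelled RNA from mouse distal colon was hybridised to Affymetrix arrays. The authors deposited log2 signals of 45101 probe sets; the values show that each array had been scaled to a like trimmed mean (150.9 to 151.3 on the linear scale, 2% trimmed at each end) with a floor at a linear signal of 10, at which 18.7 to 23.9% of probe sets lay on any array. The summarising software is not given in the sources used here, and scan dates and batches are not used here. Array medians were 5.17 to 5.53. The number of arrays limits the precision.

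The log2 values were quantile normalized. Probe sets were named from the platform table and RefSeq symbols (34958 with 1 symbol, 932 with several, left out), and each gene took its probe set with the highest mean. A model of the 4 group means was fitted (limma 3.58.1, R 4.3.3) over all 32 arrays (28 residual and 1.10 prior degrees of freedom), with 5 contrasts and Benjamini-Hochberg adjustment over 18193 genes. The script was tested on simulated data with 200 changed genes. Floor values were kept in the fits.

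The members, the role groups and the lists of other genes were chosen with earlier results of these data known. The text names every member called in a comparison, the 3 largest differences in each direction, the member with the highest probe signal in each role, the called pathway genes and the receptors, and the 10 genes most like the member mean. Alternatives covered normalization, filters on dim genes, the choice of probe set, array weights, the prior, covariates (3′/5′ control difference, other tissues, sex-linked signal), blocks, thresholds and each array left out. Leaving out treated WT repeats 2 and 9, with and without treated KO repeat 3, was chosen after seeing the data. Each p-value sets a difference of group means against the spread between mice, estimated over the 4 groups together.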

Additional observations from a re-analysis of the deposited data

Results flagged for a closer look

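In groups of 6 or 10 samples, a sample was singled out where its gap to the nearest other sample was too large a share of the group's range by Dixon's criterion. Chance marks about 1 in 20 groups; here 18 of 160 tests of 1 member in 1 group were marked, and since members vary together these tests are not independent.

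10 of the 18 were treated WT repeat 9, always as the highest of its group: Stat2 at 7.50, Ifit2 at 9.00, Ifit3 at 9.48, Ddx58 at 8.08, Mx1 at 7.88, Mx2 at 6.13, Gbp3 at 8.49, Irgm1 at 9.32, Ifi35 at 10.71 and Xaf1 at 8.59. The nearest other treated WT samples were at 7.51 for Ifit2, 8.21 for Ifit3 and 6.37 for Mx1. Treated KO repeat 3 accounted for 4, as the highest of its group: Usp18 at 7.94, Gbp6 at 7.30, Igtp at 8.61 and Bst2 at 7.77.

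The other 4 were single untreated samples. Xaf1 was lowest in untreated WT repeat 4 (7.22, the others from 7.55), and Samd9l was lowest in untreated KO repeat 5 (9.07, the others from 9.45). Oas3 in untreated KO repeat 2 (4.40) and Mx2 in untreated WT repeat 2 (3.92) were the only samples of their groups above the floor of 3.32.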

How the results depend on the processing

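None of the called member differences changed sign under any alternative run; second, dimmer probe sets of Dhx58 and Xaf1, taken alone, differed the other way in KO mice (-0.17 and -0.28). The 14 rises in KO mice were 11 to 18 under 16 of the 18 alternatives that did not leave out a single array, and 8 with only the KO arrays fitted and 4 at an adjusted p under 0.01; with each array left out in turn they were 7 to 17. The 3 calls between treated KO and treated WT samples, all lower in KO, were 1 with median centring, with the mean of a gene's probe sets, with each probe set tested, with the replicate block or with array weights, 0 with only the treated arrays fitted, with squamous and skeletal muscle means as covariates, without treated WT repeats 1 and 2 or at an adjusted p under 0.01, and 5 at an adjusted p under 0.10, again all lower. Under the alternatives chosen after seeing the data they were 5 (3 lower and 2 higher) without treated WT repeats 2 and 9 and treated KO repeat 3, and 4, all higher, without treated WT repeats 2 and 9. With each array left out the calls were 1 to 5, all lower except Oas2 without treated WT repeat 9 (1 lower and 1 higher). In WT mice 0 members became 2 with array weights and 0 to 1 with an array left out. The untreated comparison and the interaction stayed at 0 calls under all alternatives run. The cause of these changes was not tested. Where arrays were left out or not fitted, the smaller number of arrays and which arrays they were cannot be told apart. Of 749 values of single members, 674 kept their direction and their side of the threshold, 60 lost a call and 8 gained one. The other 7 changed direction, without a call in either fit.

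Repeat numbers did not pair the samples: 3 of 40 pairs of same-numbered samples of different groups had a correlation of deviations over 0.1, with a median of -0.004. With the repeat number as a block, 11 members rose in KO mice, 1 was lower in treated KO samples and 0 were called elsewhere.

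All genes called numbered 332 in WT mice, 3404 in KO mice, 21 untreated, 2331 treated and 10 for the interaction, and over the alternatives other than single arrays left out 67 to 1458, 1823 to 4600, 13 to 43, 1005 to 3298 and 0 to 258.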
